A study of Homo sapiens with 4 samples.

Results

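The HOX genes were examined in SK-N-MC, an established cell line of Ewing sarcoma, a tumour of bone and soft tissue driven by fusions of EWSR1 with an ETS transcription factor, FLI1 in most cases. Members were the protein-coding GENCODE genes on hg19 whose symbol is HOXA, HOXB, HOXC or HOXD followed by a number. They came to 39 of 20090 protein-coding genes, with 11 in HOXA on chromosome 7, 10 in HOXB on chromosome 17, 9 in HOXC on chromosome 12 and 9 in HOXD on chromosome 2. ChIP-seq libraries were made for FLI1, for SSRP1 and for acetylated lysine 27 of histone H3 (H3K27ac), 1 library each, and an input library was the authors' control. The labels give no treatment and the same line throughout, so no condition was compared, and there was no replicate. The lists give where a peak was called and not how strong it was, and the sources used here do not say whether the FLI1 antibody separates EWS-FLI1 from unfused FLI1.

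HOX genes encode homeodomain transcription factors that set the identity of body segments and limb regions. They lie in 4 clusters, and genes that share a paralog number descend from the same ancestral gene. Low numbers act in anterior structures such as the hindbrain and high numbers in posterior structures, limbs and the urogenital tract, and the order along the chromosome follows that axis. Polycomb proteins keep unused HOX genes silent, and trithorax proteins together with acetylation accompany active ones. SSRP1 is a subunit of FACT, which opens nucleosomes ahead of polymerases and restores them afterwards. EWS-FLI1 can bind single ETS sites as well as GGAA microsatellites, and posterior HOXD genes are known to be active in Ewing sarcoma.

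Sequence under the FLI1 peaks is shown first, for the ETS cores that some of them hold. An ETS core was searched as CCGGAA followed by A or G on either strand, and a GGAA run as at least 4 consecutive GGAA on either strand. The first sequence is 300 bases of hg19 from inside the 633 bp FLI1 peak upstream of HOXD11, at chr2:176971177-176971476 on the plus strand, with the ETS core in capitals 682 bp upstream of the canonical TSS. It was chosen because this gene had the most FLI1 peak sequence near its TSS of the 39.
HOXD11 upstream peak: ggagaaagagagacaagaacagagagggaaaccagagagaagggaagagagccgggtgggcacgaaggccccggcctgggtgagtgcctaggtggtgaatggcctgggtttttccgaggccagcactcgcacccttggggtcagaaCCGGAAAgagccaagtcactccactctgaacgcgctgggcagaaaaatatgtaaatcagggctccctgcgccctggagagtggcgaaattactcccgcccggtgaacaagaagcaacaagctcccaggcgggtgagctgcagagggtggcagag

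The next 11 sequences hold ETS cores of other FLI1 peaks in the gene arrays. FLI1 peaks held 14 cores in the arrays and 2 in the flanks, and those not printed lie in the flanks or, for 2 in the arrays, in FLI1 peaks not shared with SSRP1. Each core is printed with 15 bases on either side and the core in capitals, read along the strand on which it is CCGGAA. The distance is to the nearest canonical TSS of a HOX gene. The first 8 lie in peaks shared with both SSRP1 and H3K27ac, 4 of them in a single peak at PRAC2 near HOXB13, and the last 3 lie in unacetylated HOXA peaks.
HOXD12, 2416 bp upstream, chr2:176962089-176962125, plus strand: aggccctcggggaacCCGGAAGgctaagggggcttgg
HOXC11, 1557 bp downstream, chr12:54368449-54368485, plus strand: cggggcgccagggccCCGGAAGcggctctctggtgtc
HOXC9, 4819 bp upstream, chr12:54389108-54389144, minus strand: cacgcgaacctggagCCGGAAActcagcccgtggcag
HOXC9, 4492 bp upstream, chr12:54389435-54389471, plus strand: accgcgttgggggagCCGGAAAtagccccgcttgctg
HOXB13, 5167 bp downstream, chr17:46800927-46800963, minus strand: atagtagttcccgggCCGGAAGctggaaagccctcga
HOXB13, 5078 bp downstream, chr17:46801016-46801052, plus strand: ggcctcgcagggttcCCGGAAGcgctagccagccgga
HOXB13, 4984 bp downstream, chr17:46801110-46801146, minus strand: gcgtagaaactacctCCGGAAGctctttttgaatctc
HOXB13, 4734 bp downstream, chr17:46801360-46801396, minus strand: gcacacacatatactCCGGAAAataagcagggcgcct
HOXA7, 603 bp downstream, chr7:27195673-27195709, minus strand: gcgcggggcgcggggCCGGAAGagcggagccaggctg
HOXA9, 1713 bp upstream, chr7:27206851-27206887, minus strand: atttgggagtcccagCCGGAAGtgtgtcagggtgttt
HOXA13, 968 bp downstream, chr7:27238724-27238760, plus strand: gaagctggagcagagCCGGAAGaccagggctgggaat

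An ETS core lay in 12 of the 64 FLI1 peaks in the clusters and their 50 kb flanks (18.8%, 95% interval 10.1 to 30.5), against 8.56% of all FLI1 peaks. A GGAA run lay in 1 of 64 (1.56%, 0.0396 to 8.40), against 2.69% of all FLI1 peaks, which lay inside the interval. Here and below, intervals are exact binomial (Clopper-Pearson) and cover counting error only. The median GC content of the HOX FLI1 peaks was 58.3%, against 54.6% for all FLI1 peaks, and their median width was 308 bp, against 283 bp. Their part in the share of ETS cores was not tested. By cluster, cores lay in 3 of 13 HOXA peaks, 1 of 16 HOXB peaks, 4 of 16 HOXC peaks and 4 of 19 HOXD peaks. The sequence of the clusters with flanks held 1 GGAA run in HOXA, 6 in HOXB, 2 in HOXC and 0 in HOXD. Runs in the rest of the genome were not counted. The HOXA run had 15 repeats and no FLI1 peak on it. A match of letters is a description and not a binding site.

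FLI1 and SSRP1 peaks lay within 2.5 kb of a TSS of most HOX genes, while H3K27ac was about as common there as at other genes. A gene was counted when any of its TSSs had a peak within 2.5 kb. FLI1 lay at 23 of 39 HOX genes (59.0%, interval 42.1 to 74.4), against 29.0% of all protein-coding genes. SSRP1 lay at 28 of 39 (71.8%, 55.1 to 85.0), against 35.8% of all genes. H3K27ac lay at 24 of 39 (61.5%, 44.6 to 76.6), against 57.9% of all genes, so the background lay inside the interval. All 3 lay at 15 HOX genes (38.5%, 23.4 to 55.4), against 17.3% of all genes, and none at 7 (17.9%, 7.54 to 33.5), against 34.7%. Neighbouring HOX genes can share a peak and a chromatin domain, so the 39 are not independent and the intervals are too narrow to that extent. Narrowing the window to 1 kb left FLI1 at 14 of 39 HOX genes, against 24.5% of all genes, and all 3 at 9 of 39, against 15.2%. FLI1 thus no longer lay at most HOX genes. No interval was computed at 1 kb, so these counts are not shown to be above the background.

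The acetylated HOX genes nearly all carried SSRP1. Of the 24 with H3K27ac, 23 had an SSRP1 peak (95.8%, 78.9 to 99.9), against 54.7% of all acetylated genes. The exception was HOXB5, which had FLI1 and H3K27ac. FLI1 lay at 16 of the 24 (66.7%, 44.7 to 84.4), against 42.1% of all acetylated genes. No HOX gene carried H3K27ac alone, a state that 19.2% of all genes had. Among the 15 HOX genes without H3K27ac, FLI1 lay at 7 (46.7%, 21.3 to 73.4), against 11.0% of all unacetylated genes, and SSRP1 at 5 (33.3%, 11.8 to 61.6), against 9.78%. HOXA3, HOXA7, HOXA13 and HOXD1 had FLI1 and SSRP1 without acetylation, 10.3% of HOX genes against 1.28% of all genes. HOXA3 had them only near an alternative TSS.

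Around the canonical TSSs, the 5001 bp windows of HOX genes were under FLI1 peaks for 5.74% of their length, under SSRP1 peaks for 13.4% and under H3K27ac peaks for 32.7%. The windows of the 19801 protein-coding genes with a canonical TSS were covered for 2.47%, 5.20% and 19.4%. The 39 windows ranged between 0 and 2261 bp of FLI1 peak (median 239 bp), between 0 and 2495 bp of SSRP1 peak (median 466 bp) and between 0 and 5001 bp of H3K27ac peak (median 1221 bp). HOXD11 had the most of both FLI1 and SSRP1, and HOXB13 the most H3K27ac.

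**Figure D1:**
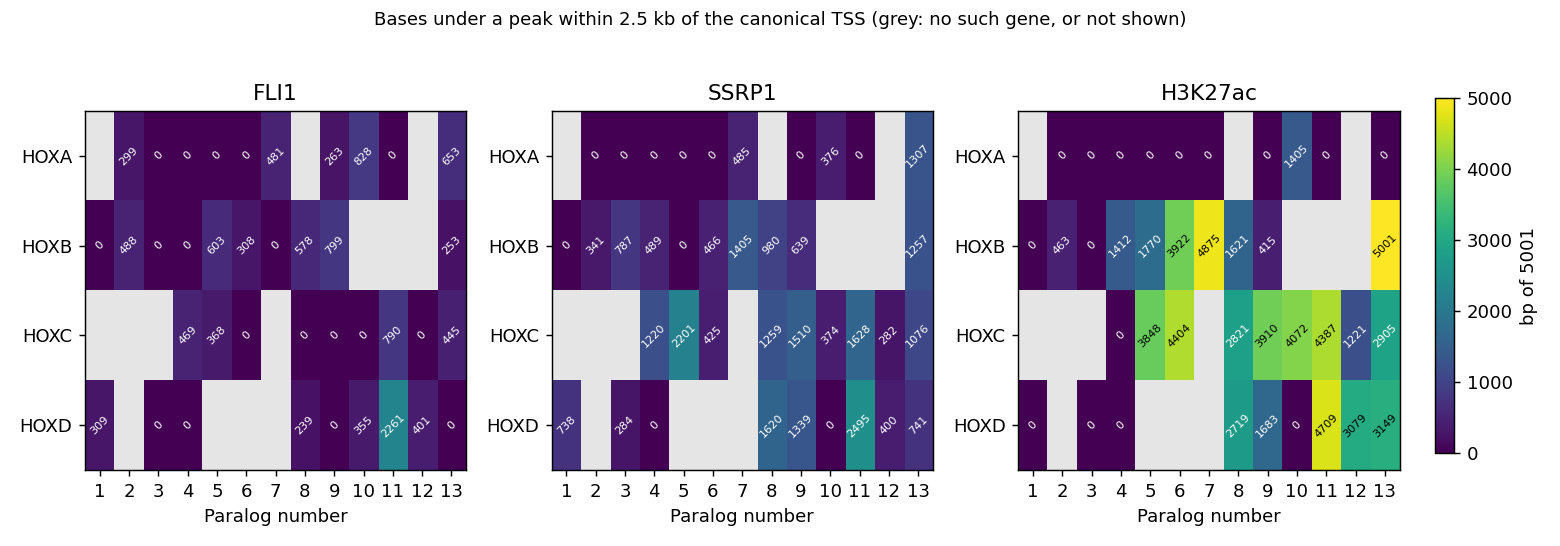
Bases under a FLI1, SSRP1 or H3K27ac peak within 2.5 kb of the canonical TSS of each of the 39 HOX genes, by cluster (rows) and paralog number (columns); grey cells have no such gene or are not shown. HOXD11 stands out for FLI1 at 2261 bp, and H3K27ac fills most of the HOXC row, while HOXA10, at 1405 bp, is the HOXA cell shown above 0.

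The clusters differed most in acetylation. From the first to the last gene, H3K27ac peaks covered 1.60% of the HOXA array, 14.0% of HOXB, 50.9% of HOXC and 22.1% of HOXD. The chromosomes that carry them were covered for 1.19%, 2.85%, 1.47% and 1.10%. SSRP1 peaks covered 2.60% of the HOXA array, 4.63% of HOXB, 14.2% of HOXC and 10.4% of HOXD, on chromosomes covered for 0.334%, 0.787%, 0.402% and 0.284%. FLI1 varied least between clusters, with 3.07% of HOXA, 3.02% of HOXB, 4.47% of HOXC and 6.53% of HOXD, on chromosomes covered for 0.404%, 0.717%, 0.431% and 0.412%. The arrays are dense in genes, so the chromosome values compare unlike sequence and serve as a scale. Counts of H3K27ac at the TSSs were also lowest in HOXA and highest in HOXC, but HOXB stood above HOXD. H3K27ac lay at 1 of 11 HOXA genes, 9 of 10 HOXB genes, 9 of 9 HOXC genes and 5 of 9 HOXD genes. In the same order, FLI1 lay at 6 of 11, 6 of 10, 6 of 9 and 5 of 9. Within 1 kb, FLI1 lay at 4 of 11, 3 of 10, 4 of 9 and 3 of 9.

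**Figure D2:**
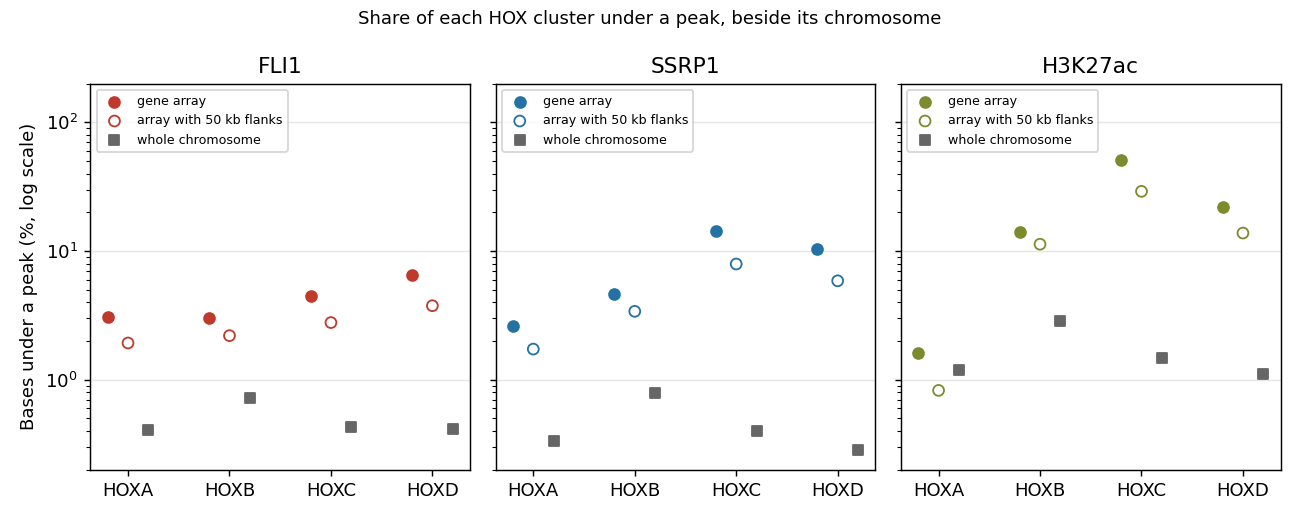
Percent of bases under a peak (log axis) in each HOX gene array (filled circles), in the array with 50 kb flanks (open circles) and on the whole chromosome that carries it (grey squares), for the 3 lists. The H3K27ac values of the arrays spread between 1.60% in HOXA and 50.9% in HOXC, while those of FLI1 stay between 3.02% and 6.53%.

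**Figure D3:**
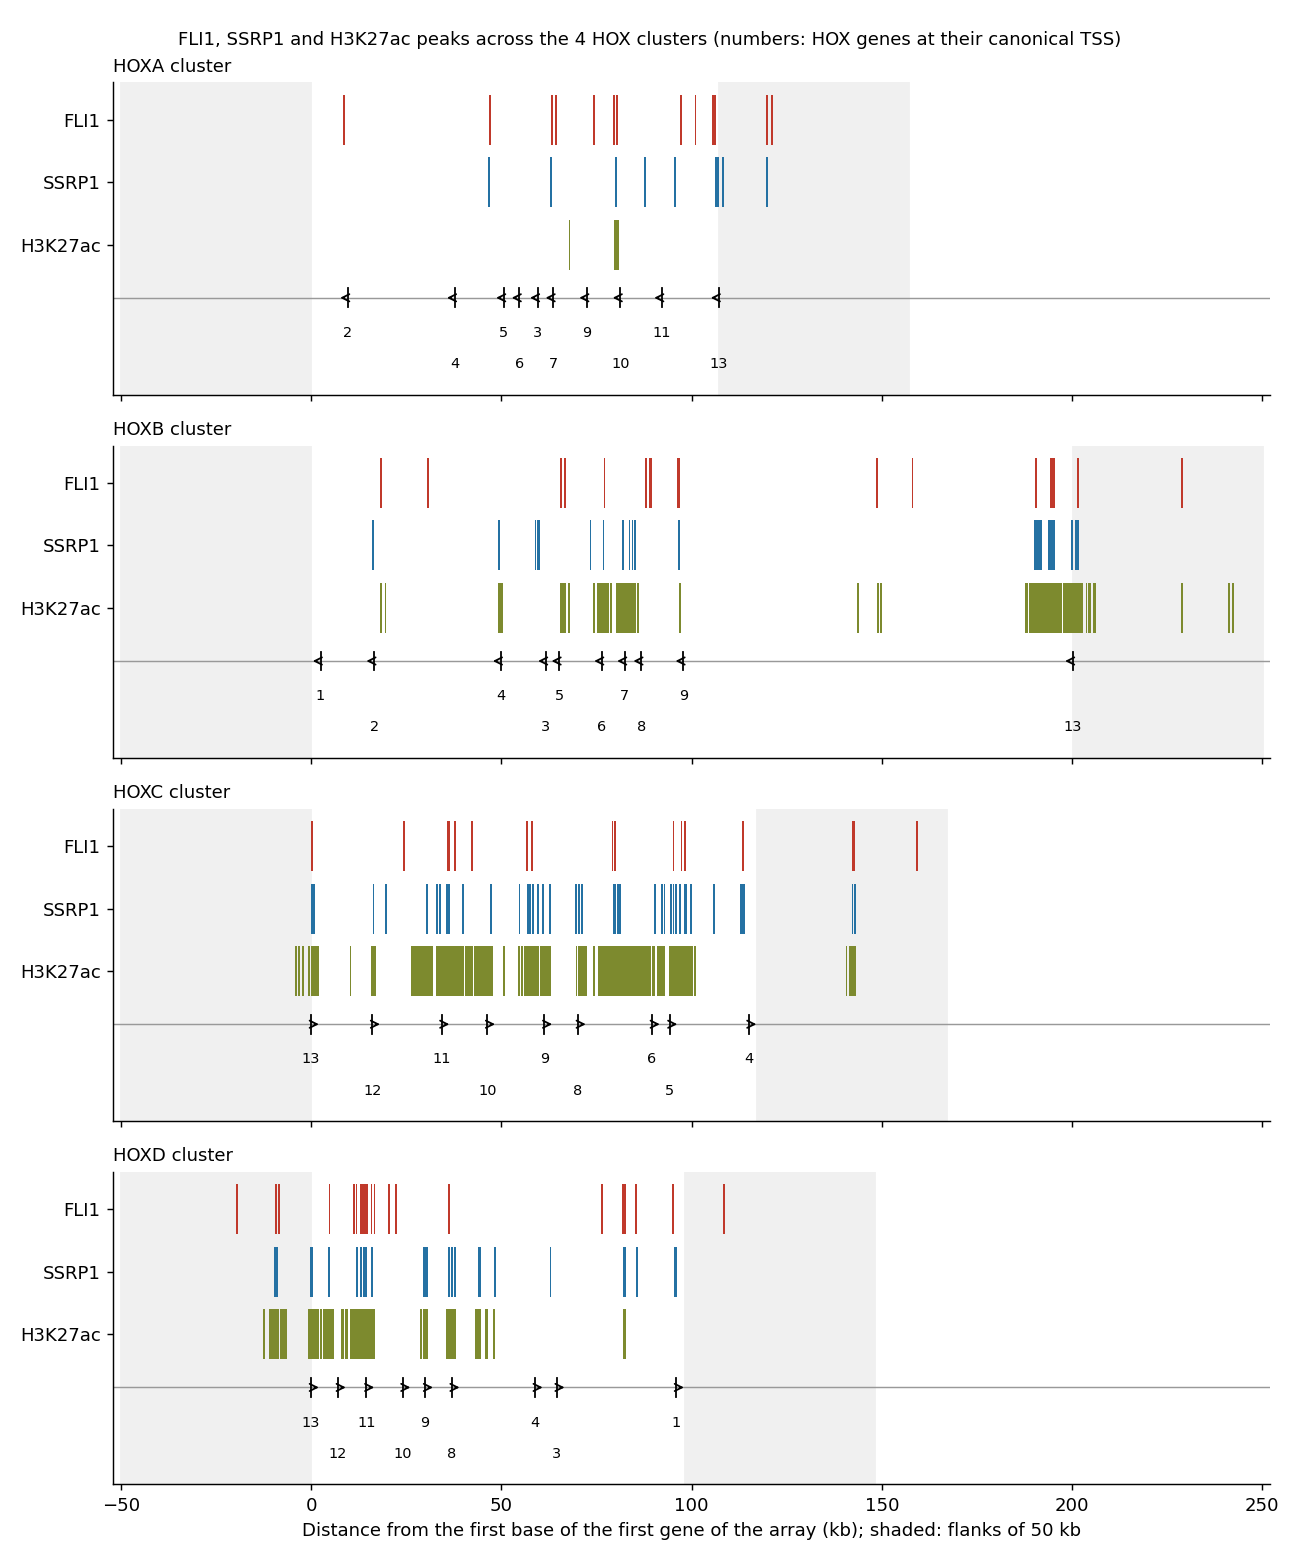
FLI1, SSRP1 and H3K27ac peaks (coloured blocks) along the 4 clusters, by distance in kb from the first base of the array, with ticks and arrows for the canonical TSS and direction of the HOX genes shown and shading for the 50 kb flanks. HOXC carries H3K27ac over 50.9% of its array, with none in the last 16.1 kb at the HOXC4 end. HOXD and HOXB carry it in blocks, and HOXA at 2 peaks only.

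HOXC had the most H3K27ac and SSRP1 of the 4 clusters, while FLI1 covered more of HOXD. All 9 genes had SSRP1 and H3K27ac, and 6 also had FLI1: HOXC4, HOXC5, HOXC6, HOXC9, HOXC11 and HOXC13. At canonical TSSs alone, FLI1 lay at 4 HOXC genes and all 3 at 3, since HOXC6 and HOXC9 had FLI1 only near an alternative TSS, as HOXC4 had H3K27ac. HOXC8, HOXC10 and HOXC12 lacked FLI1 in their windows. The members cover a range of roles, known largely from mice, from HOXC8 and HOXC9 in the thoracic region to HOXC10 in lumbar motor neurons and HOXC13 in hair. The array held 34 SSRP1 peaks, or 29.0 per 100 kb against 0.764 per 100 kb on chromosome 12, and 24 H3K27ac peaks. No stretch of the array longer than 7.99 kb was free of all 3 kinds of peak.

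The widest H3K27ac peak of all clusters ran over 14129 bp at chr12:54407904-54422032, across the alternative TSSs of HOXC4 and HOXC6, and was number 19 in width of 37195 H3K27ac peaks. It held 2 FLI1 and 3 SSRP1 peaks, which covered 5.48% and 10.5% of it. A 6249 bp H3K27ac peak at HOXC5 held 3 FLI1 and 6 SSRP1 peaks, with SSRP1 over 47.0% of it. At least 6 SSRP1 peaks met 6.04% of all H3K27ac peaks of at least 5000 bp. Another domain of 5878 bp at HOXC11 held 2 FLI1 and 4 SSRP1 peaks. One of these FLI1 peaks, chr12:54368266-54369055, lay in introns of HOXC11 and of HOTAIR, the antisense noncoding RNA, and holds an ETS core printed above, and the other, of 289 bp, lay in a UTR of HOXC11. The position of HOXC4 depends on the transcript: at its canonical TSS it had FLI1 (469 bp) and SSRP1 (1220 bp) and no H3K27ac, while its upstream TSS lay in the 14129 bp domain.

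HOXD was split along its length. The end with the posterior genes, from HOXD13 to HOXD8, was covered by H3K27ac for 45.1% of its 40.0 kb, by SSRP1 for 16.5% and by FLI1 for 10.9%. The anterior end, from HOXD8 to HOXD1, was covered for 6.25%, 6.24% and 3.52% of its 58.2 kb. This boundary was chosen after the values were seen. A stretch of 33.7 kb over HOXD4 and HOXD3 had no H3K27ac peak. HOXD4, a hindbrain gene, had no peak of any kind in its window, HOXD3 had 284 bp of SSRP1 peak, and HOXD1 had FLI1 and SSRP1 without H3K27ac.

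HOXD11, which in mice patterns the forearm together with HOXA11, carried the densest FLI1 of the family. Its window had 2261 bp under FLI1 peaks, a length that 0.0505% of the genes with a canonical TSS reached. The same window had 2495 bp under SSRP1 peaks (0.535% of those genes) and 4709 bp under H3K27ac (0.662%). A single H3K27ac peak of 6476 bp, chr2:176967741-176974216, held 7 FLI1 peaks and 4 SSRP1 peaks, and FLI1 covered 47.8% of it. At least 7 FLI1 peaks met 10 of all 37195 H3K27ac peaks (0.0269%) and 2.01% of those of at least 5000 bp. Of the 7, 5 were shared with both SSRP1 and H3K27ac. A 283 bp peak covered the TSS itself, and the 633 bp peak whose core is printed above ended 214 bp upstream. The intervals of the lists do not tell whether close peaks are separate binding events.

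The other posterior HOXD genes differed. HOXD12 had all 3, with a 401 bp FLI1 peak 2085 bp upstream. HOXD13, a digit and genital gene, had 741 bp of SSRP1 and 3149 bp of H3K27ac peak and its nearest FLI1 peak 4589 bp downstream. HOXD9 had 1339 bp of SSRP1 peak over its TSS and no FLI1 in the window. HOXD10, between the HOXD11 domain and HOXD9, had a single 355 bp FLI1 peak and neither SSRP1 nor H3K27ac. HOXD8 had all 3. The widest FLI1 peak of the cluster, 961 bp at chr2:177039143-177040103, lay in an exon of the noncoding gene HAGLR, 13.3 kb upstream of HOXD1, and was shared with SSRP1 and H3K27ac. It lay outside every HOX window.

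**Figure D4:**
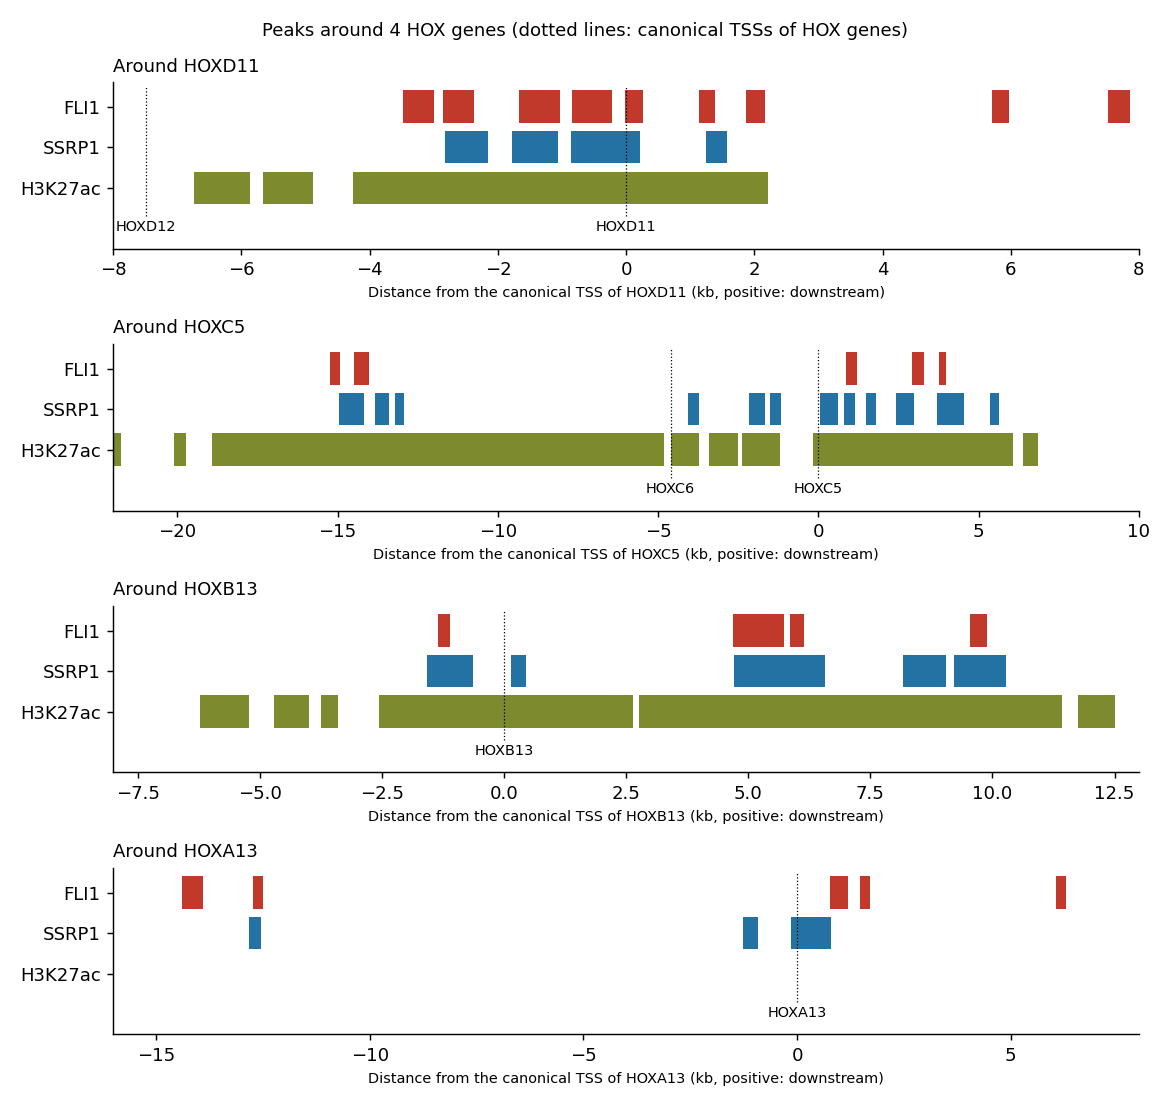
Peaks around HOXD11, HOXC5, HOXB13 and HOXA13, by distance in kb from the canonical TSS, positive downstream, with dotted lines at the canonical TSSs of HOX genes. At HOXD11, 7 FLI1 and 4 SSRP1 peaks lie on 1 H3K27ac peak, and at HOXA13 FLI1 and SSRP1 peaks lie where no H3K27ac peak was called.

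HOXB had 2 marked blocks. The first ran from HOXB4 to HOXB9, with H3K27ac over 26.8%, SSRP1 over 8.97% and FLI1 over 5.12% of 48.0 kb. HOXB7 had 4875 bp of H3K27ac and 1405 bp of SSRP1 peak in its window and no FLI1. HOXB6 had 3922 bp of H3K27ac with 308 bp of FLI1 and 466 bp of SSRP1 peak. HOXB8 and HOXB9 also had all 3, HOXB9 with a 799 bp FLI1 peak in its intron. HOXB4, a gene of blood stem cell expansion, had 1412 bp of H3K27ac and 489 bp of SSRP1 peak, with its nearest FLI1 peak 15.6 kb away. The anterior end from HOXB1 to HOXB4 was covered by H3K27ac for 3.31%. In it HOXB1, a hindbrain gene, had no peak in its window and HOXB2 had all 3. The canonical TSS of HOXB3 lies in the first block, and its window had 787 bp of SSRP1 peak and no H3K27ac. HOXB3 had H3K27ac only near an alternative TSS, from the peak at HOXB4. The limits of these blocks were chosen after the values were seen.

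The other block surrounded HOXB13, a gene of the posterior body and prostate that lies apart from the rest of the array. All 5001 bp of its window were under H3K27ac, which 0.364% of the genes with a canonical TSS matched. In it, 1257 bp lay under SSRP1 and 253 bp under FLI1. The neighbouring domain of 8677 bp, chr17:46794682-46803358, covered PRAC1 and PRAC2, small genes known for expression in prostate and colon, and was number 101 in width among all H3K27ac peaks. It held the widest FLI1 peak of the 4 clusters, 1042 bp at chr17:46800375-46801416 with the 4 ETS cores printed above, and the widest SSRP1 peak, 1875 bp. Between the blocks, 46.2 kb had no peak of any kind and 92.9 kb had no SSRP1 peak.

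HOXA carried FLI1 with little acetylation. FLI1 lay at HOXA2, HOXA3, HOXA7, HOXA9, HOXA10 and HOXA13, and SSRP1 at HOXA3, HOXA7, HOXA10 and HOXA13. At HOXA3 both lay only near an alternative TSS, and its canonical window held no peak. H3K27ac met the window of HOXA10 only, a uterine and blood gene, where a 1405 bp peak lay with 828 bp of FLI1 and 376 bp of SSRP1 peak. A stretch of 67.7 kb that reached beyond HOXA7 had no H3K27ac peak, and 37.9 kb within it had no peak of any kind. HOXA4, HOXA5, HOXA6 and HOXA11 had no peak in their windows. Of 13 FLI1 peaks in the cluster and flanks, 2 were shared with H3K27ac (15.4%, 1.92 to 45.4), against 28.4% of all FLI1 peaks, a value inside the interval. Of 8 SSRP1 peaks, 1 was (12.5%, 0.316 to 52.7), against 60.6% of all SSRP1 peaks.

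HOXA13, a digit and urogenital gene, had a 948 bp SSRP1 peak over its TSS and FLI1 peaks of 420 and 233 bp in its intron, and its window held 1307 bp of SSRP1 and 653 bp of FLI1 peak. The FLI1 peak nearest to the TSS met the end of the SSRP1 peak by less than 20% of either, so they were not counted as shared. At HOXA7 a 254 bp FLI1 peak with an ETS core lay inside a 485 bp SSRP1 peak. HOXA9, a leukaemia gene, had a 263 bp FLI1 peak with an ETS core 1601 bp upstream, and neither SSRP1 nor H3K27ac. Several peaks fell just outside the 2.5 kb windows: an SSRP1 peak lay 3163 bp from the TSS of HOXA11, a FLI1 peak 3679 bp from that of HOXA5 and a FLI1 peak 3983 bp from that of HOXC10. Just inside lay the FLI1 peaks 2085 bp from HOXD12 and 2442 bp from HOXB8, which has nearer ones.

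By paralog number, the counts over all 4 clusters were lowest in the anterior genes and highest in the posterior ones, and they lay closer together without HOXA for SSRP1. H3K27ac lay at 2 of 8 genes with paralog numbers 1 to 3 (25.0%, 3.19 to 65.1), at 10 of 15 with numbers 4 to 8 (66.7%, 38.4 to 88.2) and at 12 of 16 with numbers 9 to 13 (75.0%, 47.6 to 92.7). FLI1 lay at 4 of 8, 8 of 15 and 11 of 16 in the same order, and SSRP1 at 5 of 8, 10 of 15 and 13 of 16. All 3 lay at 1 of 8, 6 of 15 and 8 of 16. The intervals overlap, and HOXC has no gene below number 4. Without HOXA, SSRP1 lay at 4 of 5, 9 of 11 and 11 of 12 genes, FLI1 at 2 of 5, 7 of 11 and 8 of 12, and H3K27ac at 2 of 5, 10 of 11 and 11 of 12. Within HOXC, FLI1 lay at 3 of 4 middle and 3 of 5 posterior genes. H3K27ac covered 1.16% of the canonical windows of the anterior group, 36.5% of the middle group and 44.9% of the posterior group.

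Paralogs did not match across clusters. SSRP1 lay at HOXA13, HOXB13, HOXC13 and HOXD13, while H3K27ac was missing at HOXA13 and FLI1 at HOXD13. HOXC11 and HOXD11 had all 3 and HOXA11 none. HOXB4 and HOXC4 were marked, and HOXA4 and HOXD4 had no peak. HOXB1 had no peak either, while HOXD1 had FLI1 and SSRP1. In number 10, HOXA10 had all 3, HOXC10 SSRP1 and H3K27ac, and HOXD10 FLI1 alone.

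FLI1 peaks in the HOX clusters were shared with SSRP1 more often than all FLI1 peaks, while their share with H3K27ac was higher or not depending on the overlap rule. A peak was called shared when the overlap was at least 20% of either peak. Of 64 FLI1 peaks, 30 were shared with SSRP1 (46.9%, 34.3 to 59.8), against 17.2% of all FLI1 peaks. With H3K27ac, 38 were shared (59.4%, 46.4 to 71.5), against 28.4%, and with both, 25 (39.1%, 27.1 to 52.1), against 13.7%. Of 77 SSRP1 peaks, 59 were shared with H3K27ac (76.6%, 65.6 to 85.5), against 60.6% of all SSRP1 peaks. With FLI1, 29 were shared (37.7%, 26.9 to 49.4), against 31.3%, which lay inside the interval. Peaks on the same H3K27ac domain are not independent, so these intervals are too narrow to that extent. When 20% of both peaks had to overlap, 15.6% of the HOX FLI1 peaks were shared with H3K27ac, against 16.5% of all FLI1 peaks, and 31.2% of the HOX SSRP1 peaks, against 40.4% of all SSRP1 peaks, so under that rule neither share was above the background. Within the gene arrays, the FLI1 peaks shared with both numbered 21, of which 1 lay in HOXA, 5 in HOXB, 7 in HOXC and 8 in HOXD. The share of FLI1 peaks with SSRP1 was 62.5% in HOXC, 52.6% in HOXD, 37.5% in HOXB and 30.8% in HOXA. Wide acetylated domains were more common in the clusters: 9 of 73 H3K27ac peaks were at least 5000 bp wide (12.3%), against 1.34% of all. The part of that width in the shared counts was not tested.

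Noncoding RNAs of the clusters carried peaks at 12 of 23 genes for FLI1, 14 for SSRP1 and 11 for H3K27ac, counted in the same way, or 52.2%, 60.9% and 47.8%. Of all lncRNA and miRNA genes, 15.9%, 15.1% and 22.2% had them. HOTAIR, an RNA from HOXC known for its link to Polycomb, had all 3, and its body also held a FLI1 peak with an ETS core. HOTTIP, an RNA beside HOXA13 known for binding WDR5, had FLI1 and SSRP1 without H3K27ac. HAGLR in HOXD had FLI1 and SSRP1, and its antisense partner HAGLROS had all 3. HOTAIRM1, HOXA-AS2, HOXA-AS3 and HOXB-AS4 had none. Several of them overlap HOX genes, so their peaks are partly those already counted.

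The microRNAs of the clusters are shown for their seeds, bases 2 to 8, in capitals. Mature sequences were taken from RefSeq on GRCh38.p14, and the hairpins were placed on hg19 by GENCODE.
miR-196a-5p: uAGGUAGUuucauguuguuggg
miR-196b-5p: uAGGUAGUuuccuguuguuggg
miR-615-3p: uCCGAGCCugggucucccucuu

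The seed AGGUAGU is shared by miR-196a-5p and miR-196b-5p, which repress HOX transcripts, and the only change between them is A12C, counted from the 5′ end with the base of miR-196a-5p first. Their genes were not marked alike. MIR196A2 in HOXC had SSRP1 1638 bp and H3K27ac 1533 bp away, MIR196B in HOXA had FLI1 2164 bp away without the others, and MIR196A1 in HOXB had no peak within 6.84 kb. MIR615, in an intron of HOXC5, lay inside peaks of all 3 lists.

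Genes around the clusters and genes that act with HOX proteins were counted by the same windows. The shares of all protein-coding genes were 29.0% for FLI1, 35.8% for SSRP1 and 57.9% for H3K27ac. Of 23 protein-coding genes around the clusters, 8 had FLI1 (34.8%), 12 SSRP1 (52.2%) and 18 H3K27ac (78.3%). Several of these 23, among them ATF2, ATP5MC3 and SNX10, lie outside the 50 kb flanks. EVX2, the homeobox gene next to HOXD13, had all 3, and EVX1, its counterpart beside HOXA13, had none. Of 9 TALE homeodomain cofactors, which bind DNA together with HOX proteins, 4 had FLI1 (44.4%), 5 SSRP1 (55.6%) and 8 H3K27ac (88.9%). PBX2 and MEIS1 had all 3, and MEIS3 had none. Of 27 regulators of HOX chromatin and transcription, 16 had FLI1 (59.3%), 21 SSRP1 (77.8%) and 26 H3K27ac (96.3%), among them KMT2A with all 3 and the Polycomb gene EZH2 with SSRP1 and H3K27ac. The ParaHox genes, a sister group of homeobox genes, had little: of 6, PDX1 had FLI1, CDX2 had SSRP1 and none had H3K27ac.

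The labelled cell type was checked on 8 genes known for Ewing sarcoma, of which 7 had FLI1 and all 8 had SSRP1 and H3K27ac, among them NKX2-2 and NR0B1. CD99 lacked FLI1. Of 11 markers of other cell types, 3 had FLI1 (27.3%, near the 29.0% of all genes), 1 had SSRP1 (9.09%) and none had H3K27ac. On chromosomes 1 to 22 and X the lists held 36305 FLI1, 19855 SSRP1 and 37195 H3K27ac peaks.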

How the data were processed

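ChIP-seq libraries of SK-N-MC cells, grouped by sample title, were used: FLI1, SSRP1 and H3K27ac, 1 each. The series' design text gives micrococcal nuclease digestion followed by sonication. The authors mapped with Bowtie2 to hg19, and their MACS2 peaks used the input as control, per the same text. MACS2 was version 2.2.7.1, per the submitters' processing notes. Filters on duplicates, repeats or artefact regions are not given in the sources used here. The deposited peak lists hold position and name and no peak strength. Read depth is not known from them.

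Lines that repeat an interval were counted once (38324 FLI1 lines gave 36539 peaks, 23078 SSRP1 lines 19955 and 62198 H3K27ac lines 37271), and chromosomes 1 to 22 and X were kept. Genes, basic TSSs and canonical TSSs came from GENCODE release 44 on GRCh37, whose chromosome names and lengths fitted the lists. Coordinates are 1-based. Windows of 2.5 kb, flanks of 50 kb and an overlap minimum of 20% were used. With 1 library per target, no test between libraries was possible and no p-value was computed. The functions were tested on simulated data. Python 3.11.15, numpy 2.4.6 and scipy 1.17.1 were used. Names were limited by rule to the 39 members, to lists of neighbours, noncoding RNAs, cofactors, ParaHox genes, regulators and cell markers, and to the 5 widest peaks of each list, peaks shared by all 3 lists and peaks with GGAA runs. Other single peaks described were chosen after their values were seen. Some single values and sequences are not reported here. Members, lists and comparisons were chosen with earlier results of these data known.

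Alternatives were other windows, canonical TSSs, nearest gene only, the wider peaks of each list, other flanks, other overlap minima and other run lengths.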

Additional observations from a re-analysis of the deposited data

How the results depend on the processing

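No paired analysis was possible because each target had 1 library. The windows changed some counts of the 39 HOX genes. At 1 kb FLI1 lay at 14, against 24.5% of all genes, and all 3 at 9, against 15.2%. No peak lay within 1 kb at 11, against 37.6% of all genes, and within 5 kb at 4, against 31.2%. No interval was computed for these counts. The other TSS counts over all 39 genes stayed within 1.5 times under every alternative run, as did the shared FLI1 and SSRP1 peaks and the single peak with a GGAA run. By cluster, counts moved further. At 1 kb, FLI1 lay at 3 of 10 HOXB and 3 of 9 HOXD genes and all 3 at 2 HOXB genes, and 3 HOXD genes had no peak. At 5 kb, HOXA had H3K27ac at 3 genes, all 3 at 2 and no peak at 3, and every HOXD gene had a peak. At canonical TSSs all 3 lay at 3 HOXC genes. Among the wider peaks all 3 lay at 2 HOXB genes, and 2 HOXD genes had no peak. When 20% of both peaks had to overlap, 15.6% of the FLI1 peaks and 31.2% of the SSRP1 peaks were shared with H3K27ac, whose peaks are wider.

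The percent of a cluster under peaks moved with its limits. With the 50 kb flanks, and in brackets with no flank, with flanks of 100 kb and with only the wider peaks of each list, the values follow. FLI1 peaks covered HOXA 1.93% (3.07%, 1.48% and 1.01%), HOXB 2.2% (3.02%, 1.85% and 1.87%), HOXC 2.78% (4.47%, 2.51% and 2.34%) and HOXD 3.76% (6.53%, 3.04% and 3.0%). SSRP1 peaks covered HOXA 1.73% (2.60%, 1.17% and 1.09%), HOXB 3.40% (4.63%, 2.80% and 2.87%), HOXC 7.93% (14.2%, 5.69% and 5.36%) and HOXD 5.87% (10.4%, 4.25% and 5.41%). H3K27ac peaks covered HOXA 0.826% (1.60%, 0.557% and 0.678%), HOXB 11.3% (14.0%, 10.0% and 9.21%), HOXC 29.1% (50.9%, 20.8% and 26.4%) and HOXD 13.8% (22.1%, 11.3% and 12.5%). In each setting HOXC had the most H3K27ac and HOXA the least, while for SSRP1 HOXC led HOXD except among the wider peaks. Depth and peak strength were not known, so the absence of a peak is not shown to be the absence of binding.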
